A study of Mus musculus with 2 samples.

Results

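The 10 genes described here build and load MHC class II, the surface molecule that shows peptides from engulfed protein to CD4+ T cells. They were taken by symbol from the 27809 gene rows of the count matrix, and they are H2-Aa, H2-Ab1, H2-Eb1, H2-DMa, H2-DMb1, H2-DMb2, H2-Oa, H2-Ob, Cd74 and Ciita. The study asked how T cells shape cardiac immune cells under pressure overload. CD45+ leukocytes were isolated from hearts of male mice on a C57BL/6 background, operated at 8 weeks of age. Cells were taken 1 week after sham surgery or transverse aortic constriction (TAC), which narrows the aorta and loads the left ventricle. The purchased mice were C57BL/6N, and the substrain of the mice without CD3e is not given. The 5 groups were wild-type sham (WT sham), sham mice without CD3e (CD3e-/- sham), wild-type TAC (WT TAC), TAC mice without CD3e (CD3e-/- TAC) and wild-type TAC mice whose CD8+ T cells were to be depleted with an antibody, first given on day 0 and again each 3 days (anti-CD8 TAC). CD3e-/- mice carry a germline deletion of a chain of the T cell receptor complex and lack mature T cells. The cells of the groups carried 1 hashtag each and were sequenced together in 1 TAS-Seq library, so each group was 1 sample, no group had a replicate, and no test was possible. How many hearts were pooled behind a hashtag is not given in the sources used here.

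In MHC class II, an alpha chain and a beta chain form the peptide groove. H2-Aa and H2-Ab1 encode the alpha and beta chain of I-A, and H2-Eb1 encodes the beta chain of I-E. Cd74 is the invariant chain, which fills the groove until the complex reaches an endosome. There H2-DM, a dimer of H2-DMa with a DM beta chain, exchanges its remnant for antigenic peptide, and H2-DO, a dimer of H2-Oa and H2-Ob, inhibits H2-DM. Ciita is the coactivator known for turning on class II genes, mostly in dendritic cells, B cells and macrophages. Interferon-gamma from T cells and NK cells is the best known inducer of Ciita in macrophages. C57BL/6 mice make no I-E on the surface because the alpha chain gene H2-Ea is defective, and H2-Ea had reads in 26 barcodes.

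On the GRCm38.p6 build, 8 of the 10 genes lie within 1 stretch of chromosome 17, from H2-Oa (chr17:34092379-34095234) through H2-DMa (chr17:34119693-34139101), H2-DMb2 (chr17:34143229-34151553), H2-DMb1 (chr17:34153191-34160229), H2-Ob (chr17:34238905-34245908), H2-Ab1 (chr17:34263227-34269418) and H2-Aa (chr17:34282744-34287823) to H2-Eb1 (chr17:34305867-34316674). Ciita lies at chr16:10480014-10531064 and Cd74 on a further chromosome, and all 10 genes are protein coding. Class II promoters are known for an X box, bound by RFX, and a Y box, bound by NF-Y, on which Ciita assembles. RefSeq promoter windows of 300 bases on this build were at hand for 7 of the 10 genes. Because class II genes are known for a shared coactivator, the stretches with the 2 elements are shown. They are given 5′ to 3′ on the strand of the gene. Matches to the X letters (C, any 4 letters, AAC, any 2 letters and ATG) and the Y letters (GATTGG) are in capitals.
H2-Aa, chr17:34287852-34287922, minus strand: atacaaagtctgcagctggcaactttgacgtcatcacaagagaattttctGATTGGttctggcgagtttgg
H2-Eb1, chr17:34305758-34305827, plus strand: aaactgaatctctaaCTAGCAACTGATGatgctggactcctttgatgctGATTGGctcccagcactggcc
H2-DMb1, chr17:34153079-34153149, plus strand: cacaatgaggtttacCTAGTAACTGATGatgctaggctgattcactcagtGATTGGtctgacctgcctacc
H2-DMb2, chr17:34145108-34145178, plus strand: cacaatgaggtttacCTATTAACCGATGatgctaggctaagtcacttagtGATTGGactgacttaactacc
H2-Oa, chr17:34092285-34092355, plus strand: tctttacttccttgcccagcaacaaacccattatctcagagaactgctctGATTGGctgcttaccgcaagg
H2-Ob, chr17:34238800-34238867, plus strand: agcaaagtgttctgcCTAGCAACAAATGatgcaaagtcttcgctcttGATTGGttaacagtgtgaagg
Both letter patterns stood in the windows of H2-Eb1, H2-DMb1, H2-DMb2 and H2-Ob, with 21, 22, 22 and 19 bases between them. Of the 32851 windows of all genes, 2.06% held the X letters on either strand, 16.1% held the Y letters and 0.365% held both. The windows of H2-Aa and H2-Oa held the Y letters alone, 49 and 44 bases before the start. For H2-DMa the Y letters stood only in the window of a second start, 199 bases before it. The letters were chosen after the sequences had been seen, and a match is a description of the letters only.

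After removal of barcodes with few genes or a high mitochondrial share, 5263 of 5315 barcodes with a hashtag remained, with 1000, 835, 1615, 919 and 894 cells in WT sham, CD3e-/- sham, WT TAC, CD3e-/- TAC and anti-CD8 TAC. Values are always given in this order. The cells of a group summed to 91899777 to 208758777 reads, and the median cell had 75442 to 117788 reads, more in each TAC group than in either sham group. Reads of Cd3g were found in 42 of 55, 3 of 11, 28 of 37, 0 of 13 and 24 of 31 cells of the T and NK cell gate, whereas Cd8b1 was read in 8, 0, 12, 0 and 6 of all kept cells. The 0.671% of kept cells with Cd8b1 in the hashtag labelled anti-CD8 TAC (exact interval 0.247% to 1.46%) was not detectably below the 0.743% of WT TAC at this depth.

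Cells were placed in classes by the CPM (reads of a gene per 1000000 reads) of 8 genes in the single cell, with a further 5-gene sum for T and NK cells. The 3292 monocytes and macrophages (Csf1r of 300 CPM or more, Lyz2 of 2000 or more) were parted into 500 Ly6c2+ cells, 80 Ccr2+ Cd209a+ cells, 1170 Ccr2+ Cd209a- cells, 178 Lyve1+ cells and 1364 Ccr2-low Lyve1- cells. The other classes were 470 B cells, 145 type 1 dendritic cells, 233 type 2 dendritic cells and 147 T and NK cells, and 940 cells met no gate. A marker outside the gates was read in type 1 dendritic cells, B cells, Lyve1+ cells and Ly6c2+ cells. No such marker is given here for the other classes, whose names rest on the gates. Clec9a was at 322 CPM in type 1 dendritic cells, Ms4a1 at 1588 CPM in B cells, Folr2 at 961 CPM in Lyve1+ cells and Plac8 at 3538 CPM in Ly6c2+ cells. Each is 1 gene of a longer marker list. Its level in the other classes is not given here, so it does not set its class apart. The B cell gate also held Cd209a at 173 CPM, and the summed type 2 dendritic cell list ranged there from 4.21 CPM in CD3e-/- TAC to 545 CPM in anti-CD8 TAC. The summed type 1 dendritic cell list ranged in this gate from 535 CPM in CD3e-/- sham to 891 CPM in WT TAC.

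The levels below are the summed reads of a gene over the summed reads of all genes in the same cells, as CPM. In such sums, fewer expressing cells and less RNA per cell cannot be told apart. Intervals are exact, of 95%, and cover counting error only, since reads are not molecules and mice were not replicated. For 7 of the 10 genes the deposited counts hold no low values above 0. The lowest were 38 reads in a cell for H2-Aa, 35 for H2-Ab1, 29 for H2-Eb1, 8 for H2-DMa, 7 for H2-DMb1, 107 for Cd74 and 6 for Ciita, whereas H2-DMb2, H2-Oa and H2-Ob reached 1. A 0 of the first 7 is therefore not a count of no reads, and their zeros were not compared with those of the other genes.

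The chains of the groove were highest in Cd209a+ cells and lowest in Lyve1+ macrophages and lymphocytes of the T and NK gate. Over all groups, H2-Aa, the alpha chain of I-A, stood at 12151 CPM in Ccr2+ Cd209a+ cells, 11624 in type 2 dendritic cells, 9467 in type 1 dendritic cells, 7774 in Ccr2+ Cd209a- cells and 5688 in B cells. It went on at 4142 CPM in Ccr2-low Lyve1- cells, 3256 in Ly6c2+ cells, 1325 in Lyve1+ cells and 1198 in T and NK cells. Between neighbours in this order, only Ccr2+ Cd209a- cells and B cells had ranges over the 5 groups that did not overlap. H2-Aa took 49.8% to 55.6% of the reads of H2-Aa and H2-Ab1 in all 9 classes, and H2-Ab1 had the same order of classes except that its lowest pair, Lyve1+ cells and T and NK cells, was exchanged.

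**Figure D1:**
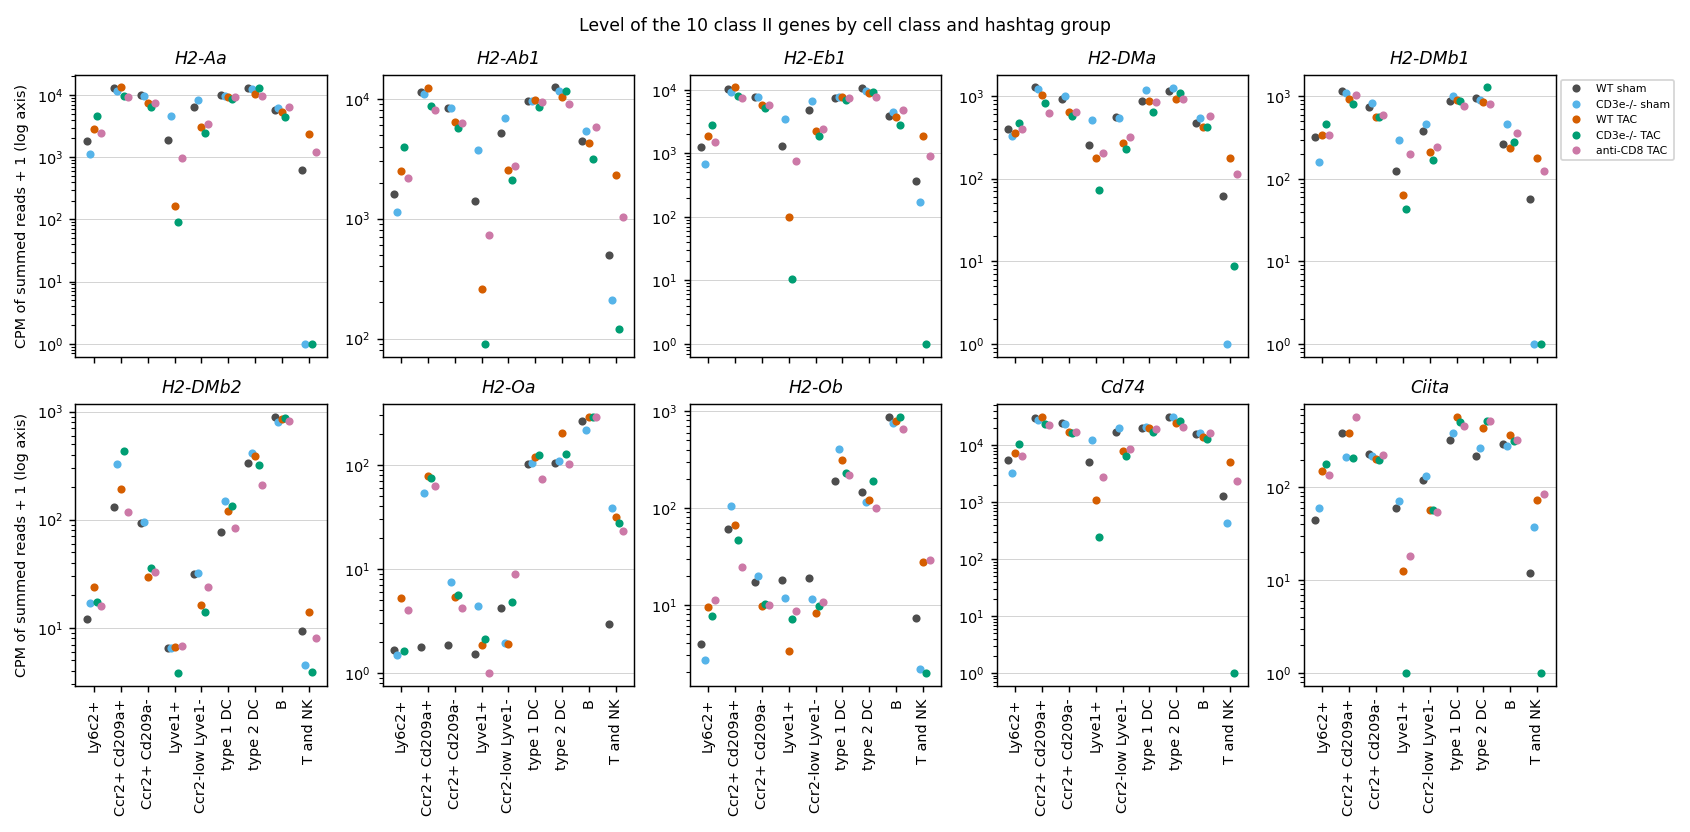
Level of each of the 10 genes (CPM of summed reads plus 1, log axis) in 9 cell classes, with 1 point for each of the 5 hashtag groups. H2-Aa, H2-Ab1, H2-Eb1 and Cd74 share an order of classes down to Ly6c2+ cells, and in these genes the points of the Lyve1+ class lie farthest apart among the macrophage classes. H2-DMb2, H2-Oa and H2-Ob are highest in B cells.

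The T and NK cell values rested on few cells. In this gate H2-Aa had 626, 0, 2320, 0 and 1200 CPM in the 5 groups. Without the 13 cells that also passed a limit of another class, the value of WT TAC was 35.7 CPM and that of anti-CD8 TAC was 1231 CPM. The share of cells under 5000 CPM in the sum of H2-Aa, H2-Ab1 and H2-Eb1 was 136 of 147 in this gate, 27 of 470 in B cells, 6 of 233 in type 2 dendritic cells and 0 of 145 in type 1 dendritic cells.

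Cd74, the invariant chain (GRCm38.p6, chr18:60803849-60812652), followed the same order at the top, with 28696 CPM in Ccr2+ Cd209a+ cells and 27579 CPM in type 2 dendritic cells. Type 1 dendritic cells had 19643 CPM and did not overlap with type 2 dendritic cells in any group. Per read of the 3 chain genes, Cd74 had 0.740 reads in type 1 dendritic cells, 0.864 in type 2 dendritic cells, 1.06 in B cells and 1.13 in Lyve1+ cells. The lowest of these 4 ratios was in the class known for cross-presentation to CD8+ T cells. In monocytes and macrophages the ratio lay between 0.911 and 0.9749 in the 5 groups, so the invariant chain and the groove chains moved together between groups.

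Ciita had another order. It was highest in type 1 dendritic cells at 476 CPM, followed by 359 CPM in type 2 dendritic cells, 354 in Ccr2+ Cd209a+ cells and 312 in B cells. Ccr2+ Cd209a- cells had 209 CPM, below B cells without overlap, and Ly6c2+ cells had 146 CPM, below Ccr2+ Cd209a- cells without overlap. Ccr2-low Lyve1- cells had 75.1 CPM, T and NK cells 48.7 CPM and Lyve1+ cells 31.5 CPM. Ly6c2+ cells thus stood above Ccr2-low Lyve1- cells in Ciita and below them in H2-Aa over all groups, although their ranges overlapped for both genes.

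Of the peptide editor, H2-DMa (the alpha chain of H2-DM) was at 1272, 1225, 1026, 812 and 627 CPM in Ccr2+ Cd209a+ cells and at 1156, 1239, 907, 1095 and 923 CPM in type 2 dendritic cells. The Ccr2+ Cd209a+ class held 17, 22, 27, 3 and 11 cells, so its values in CD3e-/- TAC rest on 3 cells. The beta chain is encoded by a pair of closely related genes, and reads may have been split between them in the authors' counting, so each alone is uncertain. The counts above 0 also began at 7 reads in a cell for H2-DMb1 and at 1 for H2-DMb2. Low counts missing from H2-DMb1 alone would raise the share of H2-DMb2, and the intervals do not cover this. Its size was not tested. With both limits, the reads of B cells went mostly to H2-DMb2 and those of all other classes to H2-DMb1. H2-DMb2 took 71.8% of the reads of both genes in B cells (interval 71.4% to 72.3%), with 77.5%, 63.4%, 78.5%, 75.4% and 69.7% in the 5 groups. It took 27.8% in type 2 dendritic cells, 17.5% in Ccr2+ Cd209a+ cells, 11.2% in type 1 dendritic cells, 7.10% in Ccr2-low Lyve1- cells and 3.86% in Lyve1+ cells. The 5 groups of B cells did not overlap with the groups of any other class except T and NK cells, of which 2 groups had 3 reads of both genes each.

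**Figure D2:**
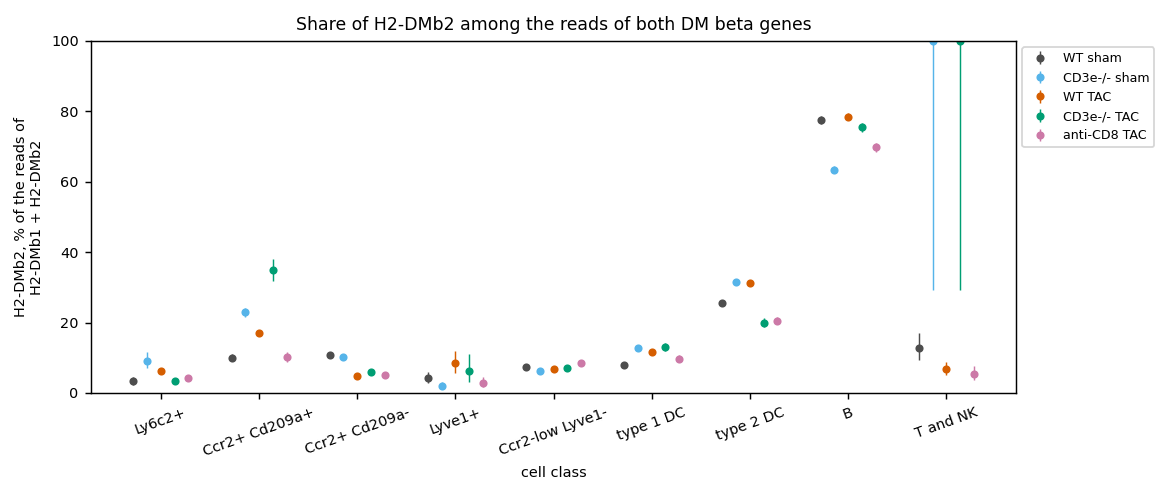
Share of H2-DMb2 among the reads of H2-DMb1 and H2-DMb2 (percent) by cell class, with 1 point for each hashtag group and exact 95% intervals for counting error. B cells lie between 63.4% and 78.5%, and the points at 100% among T and NK cells rest on 3 reads each. Counts above 0 began at 7 reads for H2-DMb1 and at 1 for H2-DMb2, which the intervals do not cover.

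In CPM, H2-DMb2 was at 900, 800, 856, 862 and 825 in B cells and at 332, 411, 387, 322 and 208 in type 2 dendritic cells. In the B cell gate without cells that passed another limit (431 of 470 cells), H2-DMb2 was at 941 CPM and H2-DMb1 at 246 CPM, against 844 and 331 CPM in the whole gate. B cells were above all dendritic cells in H2-DMb2 in every group, with or without these cells.

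H2-Oa and H2-Ob, the chains of the inhibitor H2-DO, were read in B cells and dendritic cells. H2-Ob had 877, 745, 790, 862 and 647 CPM in B cells, 187, 402, 311, 228 and 217 CPM in type 1 dendritic cells and 144, 114, 121, 189 and 97.7 CPM in type 2 dendritic cells. H2-Oa had 261, 213, 289, 290 and 287 CPM in B cells, 101, 102, 118, 124 and 72.0 CPM in type 1 dendritic cells and 102, 108, 201, 126 and 101 CPM in type 2 dendritic cells. B cells stood above the next class in every group for both genes. The pair was not balanced alike in the dendritic cells, since H2-Ob made up 74.9% of the reads of both genes in B cells, 72.4% in type 1 dendritic cells and 47.9% in type 2 dendritic cells.

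Among monocytes and macrophages, H2-Oa was at 1.87, 6.85, 6.09, 3.63 and 5.77 CPM and H2-Ob at 18.4, 19.3, 10.4, 8.47 and 9.77 CPM. After each cell was thinned to 30000 reads, H2-Ob was read in 95.5% of B cells (interval 93.0% to 97.3%), in 88.3% of type 1 dendritic cells, in 59.2% of type 2 dendritic cells and in 10.7% of monocytes and macrophages. The T and NK cells, which should lack the gene, had it in 7.80% (interval 3.96% to 13.5%). The interval of monocytes and macrophages (9.61% to 11.8%) lay inside that interval. The T and NK gate is not a clean background, since 13 of its 147 cells also passed a limit of another class. It therefore cannot show whether the reads in monocytes and macrophages are background. Without thinning the shares were 94.3%, 95.9%, 68.2%, 20.5% and 21.1% in the same order. H2-Oa was read after thinning in 59.5% of B cells, 57.2% of type 1 and 52.2% of type 2 dendritic cells, 2.96% of monocytes and macrophages and 11.3% of T and NK cells. Among the macrophage classes, Ccr2+ Cd209a+ cells alone had an interval above that of T and NK cells, with H2-Ob in 36.7% (interval 26.1% to 48.3%) of 79 cells. The 112 monocytes and macrophages, 70 B cells, 5 type 2 dendritic cells and 6 T and NK cells with fewer reads were left out of these shares. Before thinning the median cell had 98866 reads in monocytes and macrophages, 47634 in B cells and 82089 in T and NK cells.

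With the class order in place, the groups were compared within monocytes and macrophages, which made up 55.1%, 54.6%, 65.6%, 69.5% and 65.5% of the kept cells. The comparisons share groups, since WT TAC stands in 3 of the 5 and WT sham and CD3e-/- sham in 2 each. A gene counted as past the limit when log2 of the ratio, with 10 CPM added to both levels, was at least 1.5-fold, and genes with 50 CPM or more in either group formed the background. Folds given below are ratios of the CPM itself.

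In monocytes and macrophages H2-Aa was at 6990 CPM in WT sham and 8405 CPM in CD3e-/- sham, and at 5192, 4341 and 4649 CPM in the TAC groups. Both sham groups lay above all 3 TAC groups for H2-Aa, H2-Ab1, H2-Eb1, H2-DMa, H2-DMb1, H2-DMb2, H2-Ob, Cd74 and Ciita, but not for H2-Oa. How many of all genes had this order was not counted, and several members rise and fall together across cells. In WT mice H2-Aa was 1.35-fold lower after TAC (log2 -0.43) and Cd74, with 17818 CPM in WT sham and 12457 CPM in WT TAC, was 1.43-fold lower (log2 -0.52). Of the 8 members with enough reads, 1 was lower by 1.5-fold or more, beside 3.25% of 3724 genes. It was H2-DMb2, which had 50.8 CPM in WT sham and 29.1 CPM in WT TAC. The median log2 ratio of these 8 members was -0.44, against 0.04 for all genes. With cells weighted equally, H2-DMb2 was at 35.7 and 23.3 CPM, under 50 CPM in both groups, and was not counted. Cd74, at 18538 and 12289 CPM, was then past the limit.

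In CD3e-/- mice the difference between sham and TAC was larger in size. H2-Aa was 1.94-fold lower after TAC (log2 -0.95), and Cd74, at 20505 CPM in CD3e-/- sham and 10721 CPM in CD3e-/- TAC, was 1.91-fold lower (log2 -0.93). Here 7 of 8 members were lower by 1.5-fold or more, beside 4.44% of 3738 genes, with a median log2 ratio of -0.93 against 0.06 for all genes. The member that stayed inside the limit was Ciita, at 165 CPM in CD3e-/- sham and 136 CPM in CD3e-/- TAC. Whether the response differed between genotypes could not be tested with 1 sample a group.

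The larger difference came with a higher start in CD3e-/- sham. All 10 genes were higher in CD3e-/- sham than in WT sham, by log2 0.05 to 0.51, although 0 of 8 passed the limit, beside 1.35% of 3637 genes. With cells weighted equally this turned for H2-Ob, at 17.8 CPM in WT sham and 17.6 CPM in CD3e-/- sham. CD3e-/- TAC was lower than WT TAC in all 10 genes, by log2 0.08 to 0.29 in size, with 0 of 7 past the limit, beside 0.736% of 3669 genes. With cells weighted equally this direction turned for H2-DMb1, at 391 CPM in WT TAC and 403 CPM in CD3e-/- TAC, and for Ciita, at 140 and 153 CPM. The hashtag labelled anti-CD8 TAC was lower than WT TAC in 8 of 10 genes, with 0 of 7 past the limit, beside 0.274% of 3655 genes, and H2-Aa was at 4649 against 5192 CPM. Equal weights turned this direction for H2-DMa, at 445 CPM in WT TAC and 455 CPM in anti-CD8 TAC. They also turned Ciita, which was then lower in anti-CD8 TAC, at 140 and 126 CPM. Counting error on the sums was small, as the interval of H2-Aa in anti-CD8 TAC ran from 4633 to 4665 CPM, but no spread between mice stands behind any of these differences.

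**Figure D3:**
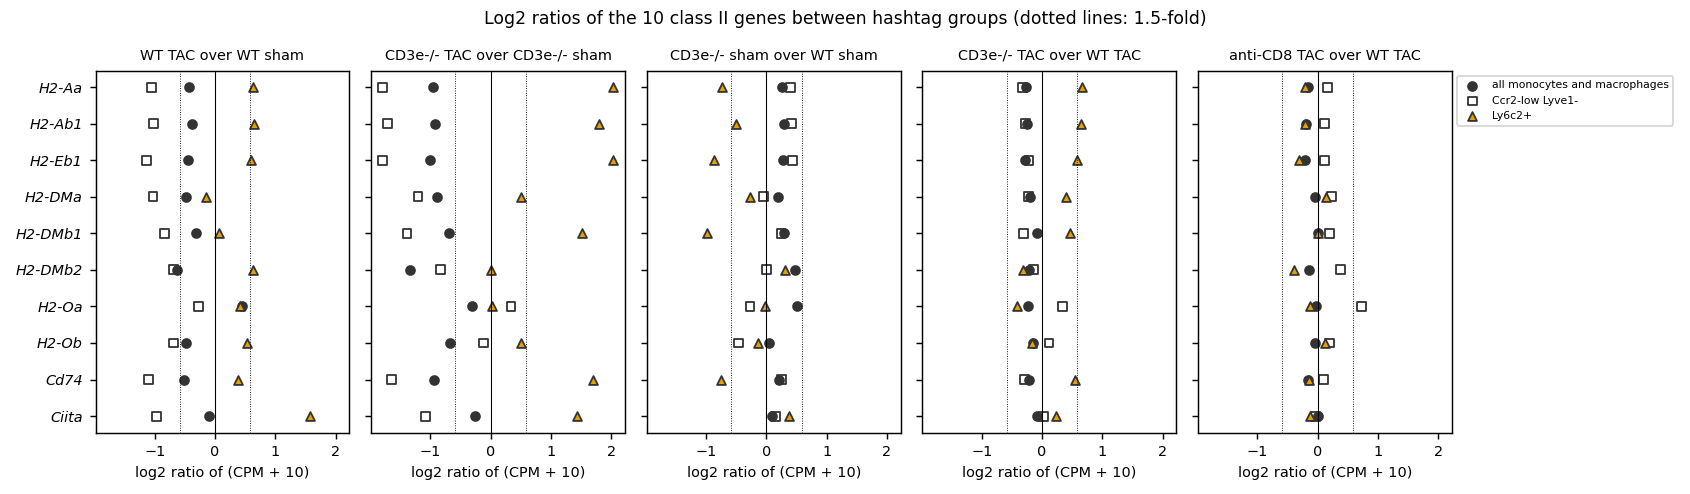
Log2 ratio of CPM plus 10 for each of the 10 genes in 5 comparisons of hashtag groups, for all monocytes and macrophages, for Ccr2-low Lyve1- cells and for Ly6c2+ cells. Dotted lines mark 1.5-fold. In both comparisons of TAC with sham, most genes lie left of 0 in Ccr2-low Lyve1- cells and right of 0 in Ly6c2+ cells, with H2-Aa at -1.06 and 0.63 in WT mice and at -1.79 and 2.03 in CD3e-/- mice.

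Markers of other cells in the monocyte and macrophage gate differed between the groups as well. The summed B cell list (5 genes) ranged from 19.3 to 28.2 CPM over the groups, and the type 1 dendritic cell list from 295 to 358 CPM. The type 2 dendritic cell list was highest in CD3e-/- sham at 190 CPM and lowest in CD3e-/- TAC at 53.0 CPM, and the monocyte list ran from 1843 CPM in WT sham to 4337 CPM in CD3e-/- TAC. The part of these lists in the class II levels was not tested.

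The classes of monocytes and macrophages did not share one course. Ccr2-low Lyve1- cells are the class in which resident cardiac macrophages would fall, and they made up 53.9%, 46.3%, 37.8%, 36.3% and 38.1% of monocytes and macrophages. Their H2-Aa was at 6327, 8355, 3034, 2412 and 3396 CPM, with both sham groups above all TAC groups. In WT mice it was 2.09-fold lower after TAC (log2 -1.06), and in CD3e-/- mice 3.46-fold lower (log2 -1.79). Cd74 was at 16865, 20082, 7830, 6386 and 8403 CPM, and H2-Eb1 at 4877, 6596, 2208, 1900 and 2386 CPM. All 7 members with enough reads were lower by 1.5-fold or more after TAC in WT mice, beside 4.55% of 3827 genes, and all 7 in CD3e-/- mice, beside 7.39% of 3871 genes.

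Ciita was lower along with the chains in these cells. It was at 118 CPM in WT sham and 131 CPM in CD3e-/- sham, and at 55.5, 56.7 and 53.7 CPM in the TAC groups, so that it was 2.13-fold lower after TAC in WT mice and 2.32-fold lower in CD3e-/- mice. The editor chains H2-DMa and H2-DMb1 were at 559 and 385 CPM in WT sham and 269 and 210 CPM in WT TAC. CD3e-/- sham cells of this class were above WT sham cells by 1.32-fold in H2-Aa, with 0 of 7 members past the limit, beside 3.74% of 3766 genes. The TAC groups lay close to each other, with 0 of 7 members past the limit for CD3e-/- TAC against WT TAC, beside 1.61% of 3793 genes, and 0 of 7 for anti-CD8 TAC against WT TAC, beside 1.65% of 3809 genes.

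The cells of the class were spread widely in class II, and the groups differed in how they were spread. The share of Ccr2-low Lyve1- cells with under 5000 CPM in the sum of H2-Aa, H2-Ab1 and H2-Eb1 was 32.3% of 297 in WT sham, 16.1% of 211 in CD3e-/- sham, 60.6% of 401 in WT TAC, 61.2% of 232 in CD3e-/- TAC and 59.2% of 223 in anti-CD8 TAC. The intervals of the TAC groups, which spanned 52.4% to 67.5%, lay above those of WT sham (27.0% to 38.0%) and CD3e-/- sham (11.4% to 21.8%). The median cell had 17809 CPM in WT sham and 27368 CPM in CD3e-/- sham, against 1624, 2176 and 1573 CPM in the TAC groups. Few cells stood near the limit, with 20, 8, 29, 28 and 19 cells within a factor of 1.5 of it. The TAC cells of the class were read more deeply, with a median of 84930 reads in WT TAC against 66605 in WT sham.

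**Figure D4:**
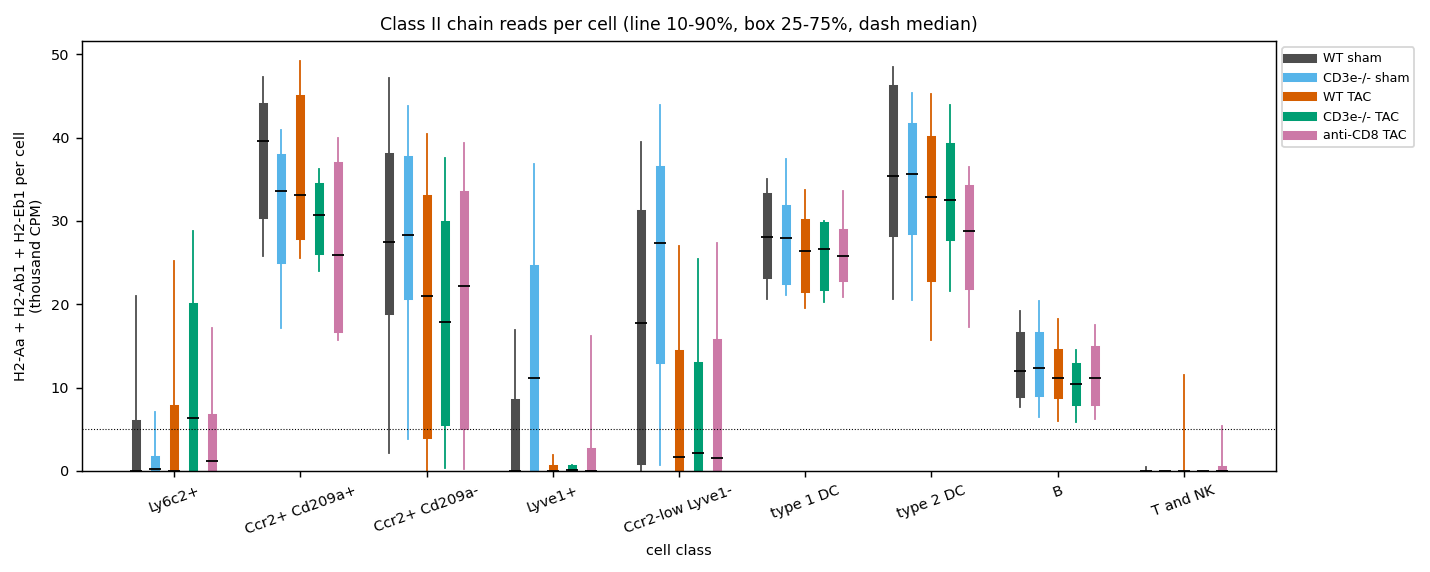
Sum of H2-Aa, H2-Ab1 and H2-Eb1 in single cells (in units of 1000 CPM) by cell class and hashtag group. Lines span the 10th to 90th percentile of cells, boxes the 25th to 75th, and dashes mark the median. The dotted line is the limit of 5000 CPM, and the medians of Ccr2-low Lyve1- cells are above it in both sham groups and below it in the 3 TAC groups.

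Within this class the summed list of resident macrophage markers moved in the same direction as class II between sham and TAC in both genotypes, at 1938, 1376, 1205, 997 and 1546 CPM in the 5 groups, while the macrophage list (Adgre1, Cd68, Mertk, C1qa) was at 4630, 4044, 5091, 5198 and 5345 CPM. CD3e-/- sham had the highest class II and a lower resident list than WT sham. The summed type 2 dendritic cell list (5 genes, of which Cd7 was at 0) was at 64.5, 135, 32.0, 30.8 and 45.4 CPM in this class, the same order of groups as H2-Aa. The part of the cell makeup of the gate in the class II levels was not tested.

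Ccr2+ Cd209a- cells, which are in the main monocyte-derived in the heart, had a smaller difference. H2-Aa was at 9871, 9756, 7381, 6507 and 7420 CPM, again with both sham groups above all TAC groups, and was 1.34-fold lower after TAC in WT mice (log2 -0.42) and lower by log2 0.58 in size in CD3e-/- mice. Ciita was at 228, 218, 199, 199 and 224 CPM, with anti-CD8 TAC inside the range of the sham groups. The member that differed most was H2-DMb2, at 91.6 and 93.9 CPM in the sham groups and 28.5, 35.0 and 31.7 CPM in the TAC groups. The low class II cells of this class made up 12.9%, 10.7%, 25.8%, 23.1% and 24.5%.

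Lyve1+ cells, the class of tissue macrophages with the lowest class II, were few, with 65, 23, 47, 14 and 29 cells. Their H2-Aa was at 1882 CPM in WT sham, 4672 CPM in CD3e-/- sham, 163 CPM in WT TAC, 91.3 CPM in CD3e-/- TAC and 965 CPM in anti-CD8 TAC. Low class II cells made up 70.8%, 39.1%, 97.9%, 100% and 79.3% of the class. Cd74 had the same order, at 5113, 12567, 1107, 239 and 2794 CPM. Ciita was at 59.4 and 71.0 CPM in the sham groups, 11.6 CPM in WT TAC and 17.2 CPM in anti-CD8 TAC, and it was listed at 0 in the 14 cells of CD3e-/- TAC.

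Ly6c2+ cells, the class of classical monocytes, went the other way in the sums. They were 25, 32, 151, 161 and 131 cells, or 4.54%, 7.02%, 14.2%, 25.2% and 22.4% of monocytes and macrophages. H2-Aa was at 1847, 1107, 2873, 4542 and 2484 CPM, so that in these sums all TAC groups lay above both sham groups. It was 1.56-fold higher after TAC in WT mice and 4.10-fold higher in CD3e-/- mice. Ciita was at 43.2 and 59.2 CPM in the sham groups and 148, 176 and 135 CPM in the TAC groups. In WT mice 4 of 7 members were higher by 1.5-fold or more, beside 16.1% of 4039 genes, and in CD3e-/- mice 6 of 7, beside 13.5% of 4013 genes.

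The sums of this class rest on few sham cells. The share of low class II cells among Ly6c2+ cells was 72.0% in WT sham (interval 50.6% to 87.9%) and 70.2% in WT TAC (62.2% to 77.4%), and the mean of H2-Aa over single cells was 2143 CPM and 2499 CPM. When cells were weighted equally, 1 of 7 members was past the limit in WT mice. In CD3e-/- mice the share was 87.5% of 32 cells in sham (interval 71.0% to 96.5%) and 47.2% of 161 cells after TAC (39.3% to 55.2%). CD3e-/- TAC was the only group in which the median Ly6c2+ cell was above 5000 CPM, at 6396 CPM. In anti-CD8 TAC the low share was 68.7%, close to WT TAC. Its mean of H2-Aa over single cells was 2134 CPM, not above WT sham. The means of H2-Eb1 (1297 against 1512 CPM) and Cd74 (5797 against 5942 CPM) were also below WT sham. That of H2-Ab1 (1945 against 1888 CPM) was above it.

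Since class shares and levels both differed between groups, the mean class II level of monocytes and macrophages was recomputed with 1 of them held at WT sham. The observed mean of the sum of H2-Aa, H2-Ab1 and H2-Eb1 per cell was 127%, 69.03%, 65.1% and 62.1% of WT sham in CD3e-/- sham, WT TAC, CD3e-/- TAC and anti-CD8 TAC. With the shares of the 5 classes held at those of WT sham it was 125%, 58.8%, 55.5% and 60.7%. With the levels within each class held at those of WT sham instead, it was 110%, 105%, 94.7% and 94.7%. For Cd74 the values with shares held were 117%, 57.8%, 54.1% and 59.4%. For Ciita the observed mean was 104%, 82.3%, 90.02% and 74.4% of WT sham, and with shares held it was 98.9%, 65.9%, 68.9% and 60.4%.

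**Figure D5:**
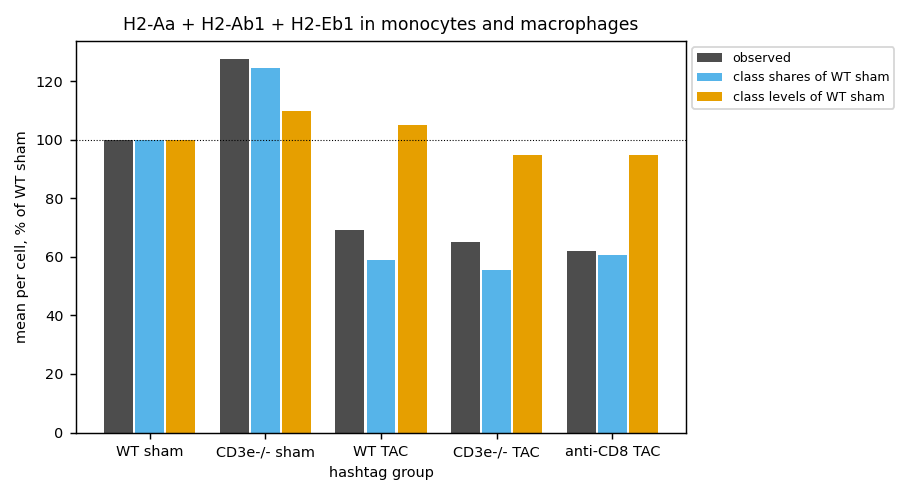
Mean of H2-Aa, H2-Ab1 and H2-Eb1 per cell in monocytes and macrophages as percent of WT sham, as observed, with the shares of the 5 classes held at WT sham, and with the levels within classes held at WT sham. In the 3 TAC groups the first 2 bars stand between 55.5% and 69.03%, and the third bar between 94.7% and 105%.

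In dendritic cells, H2-Aa, H2-Ab1 and H2-Eb1 stayed within 1.5-fold between sham and TAC in both genotypes. In type 1 dendritic cells H2-Aa was at 10192, 9502, 9442, 8774 and 9180 CPM, with 31, 27, 54, 15 and 18 cells, and in type 2 dendritic cells at 13180, 12441, 10394, 12776 and 9815 CPM, with 63, 55, 72, 18 and 25 cells. The sham groups of type 1 dendritic cells were above the TAC groups in H2-Aa, by 1.08-fold in WT mice and 1.08-fold in CD3e-/- mice, whereas in type 2 dendritic cells sham and TAC overlapped. In H2-Ab1 and H2-DMb1 they overlapped in both classes. In type 2 dendritic cells both sham groups were above all TAC groups in H2-Eb1, at 10564, 9603, 8792, 9192 and 7584 CPM, and in H2-DMa. Cd74 was likewise at 31864, 31449, 24401, 26764 and 21258 CPM there, and was 1.31-fold lower after TAC in WT mice and 1.18-fold lower in CD3e-/- mice. In type 1 dendritic cells Cd74 was at 19933, 20989, 19734, 17355 and 19447 CPM, again with both sham groups above all TAC groups. Ciita was higher in all TAC groups than in both sham groups in both classes. It was at 321 and 390 CPM in the sham groups and 581, 503 and 458 CPM in the TAC groups of type 1 dendritic cells, and at 216 and 265 CPM against 436, 519 and 515 CPM in type 2 dendritic cells. In type 2 dendritic cells it was 2.02-fold higher after TAC in WT mice and 1.962-fold higher in CD3e-/- mice, while H2-Aa was 1.27-fold lower and 1.03-fold higher.

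In B cells 0 of 10 members were lower by 1.5-fold or more after TAC in WT mice, beside 8.54% of 4077 genes, and 3 of 10 in CD3e-/- mice, beside 12.1% of 4189 genes. The 3 were H2-Ab1, H2-Eb1 and H2-DMb1. With cells weighted equally none of these 3 was past the limit. CD3e-/- sham and CD3e-/- TAC were then at 4335 and 3178 CPM in H2-Ab1, 3550 and 2793 CPM in H2-Eb1 and 287 and 272 CPM in H2-DMb1. The levels that follow are again from summed reads. H2-Ab1 was at 4420, 5358, 4319, 3133 and 5793 CPM in 100, 126, 95, 76 and 73 cells, H2-Eb1 at 3913, 4459, 3732, 2793 and 4773 CPM and H2-Aa at 5810, 6209, 5284, 4466 and 6333 CPM. In these sums CD3e-/- TAC was the lowest group in each of these chains and anti-CD8 TAC the highest. They were also the groups with the lowest and the highest type 2 dendritic cell list in this gate. The part of that list in these levels was not tested. With cells weighted equally CD3e-/- TAC stayed lowest in each chain, but CD3e-/- sham was above anti-CD8 TAC. These groups were then at 5407 and 4911 CPM in H2-Aa, 4335 and 4028 CPM in H2-Ab1 and 3550 and 3262 CPM in H2-Eb1. Without the 39 cells that also passed a limit of another class, H2-Ab1 was at 4010, 3904, 3574, 3068 and 4040 CPM and H2-Eb1 at 3310, 3241, 3153, 2710 and 3278 CPM. H2-DMb1 was then at 253 CPM in CD3e-/- sham and 272 CPM in CD3e-/- TAC, against 461 and 282 CPM in the whole gate. None of the 3 members was past the limit in CD3e-/- mice without these cells. H2-Aa, which overlapped between sham and TAC in the whole gate, was at 5332 and 4866 CPM in the sham groups and 4742, 4209 and 4674 CPM in the TAC groups without these cells, with no overlap. Ciita was at 296 and 277 CPM in the sham groups and 362, 313 and 323 CPM in the TAC groups of the whole gate, without overlap. It was at 337, 305, 367, 320 and 356 CPM without these cells, and sham and TAC then overlapped.

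Across single cells, the chains had higher rank correlations within macrophages than within B cells. Among 1364 Ccr2-low Lyve1- cells, Spearman's rho with H2-Ab1 was 0.929 for H2-Aa, 0.929 for H2-Eb1, 0.928 for Cd74, 0.645 for H2-DMb1, 0.555 for H2-DMa and 0.430 for Ciita. H2-DMb2 had 0.216, H2-Ob 0.07 and H2-Oa -0.004, and the total reads of the cell had -0.119. Among 470 B cells the values were 0.412 for H2-Aa, 0.494 for Cd74 and 0.083 for Ciita. These cells share 1 library and come from all 5 groups, and the values of all 10 genes share the depth of the cell, so the coefficients are a description. The classes also differ in spread. The sum of H2-Aa, H2-Ab1 and H2-Eb1 was at 0 in 367 of 1364 Ccr2-low Lyve1- cells and in 6 of 470 B cells. Coefficients of the classes are therefore not on a par. Nor are those of H2-DMb2, H2-Oa and H2-Ob with the other genes, whose counts hold no low values above 0.

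The genes that act before and around class II were read in the same monocytes and macrophages. All 6 genes of antigen processing (Ctss, Ctsl, Ctsb, Ctsd, Lgmn and Ifi30) were higher by 1.5-fold or more after TAC in both genotypes, beside 4.32% of 3724 genes in WT mice and 6.96% of 3738 genes in CD3e-/- mice, with median log2 ratios of 0.80 and 0.84. Ctss, the protease that trims the invariant chain, was at 2258, 2334, 3629, 4250 and 3609 CPM. Ifi30, a reductase of the endosome that opens disulfide bonds of antigen, was at 417, 520, 768, 892 and 806 CPM.

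Among the 7 genes of the interferon-gamma arm, Irf1, a factor downstream of the receptor, was at 229, 209, 120, 105 and 125 CPM and was lower by more than 1.5-fold in both genotypes. Ifngr1, Ifngr2 and Jak1 stayed within the limit in both. Of the turnover genes, Cd83, which keeps class II on the surface, was at 211, 245, 128, 80.0 and 145 CPM, and Marchf1, the ligase that removes it, was at 112, 122, 121, 143 and 127 CPM. Of the 7 regulators of the promoter (the RFX and NF-Y subunits and Creb1), only Creb1 had enough reads, at 77.1, 66.6, 76.1, 71.2 and 79.8 CPM. The class I genes were not lower after TAC. B2m, the light chain of class I, was at 3511, 3487, 4558, 5452 and 5046 CPM. In WT mice 0 of 3 class I genes were higher by 1.5-fold or more after TAC, beside 4.32% of 3724 genes. In CD3e-/- mice 2 of 3 were, beside 6.96% of 3738 genes.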

How the data were processed

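Raw read counts per gene and cell barcode were used as deposited. The authors made them from 1 TAS-Seq library, and per the labels cutadapt 2.10, Bowtie2 2.4.2 and GRCm38 were used. They also called hashtags and doublets, and 48 columns (40 doublets, 8 without a hashtag) were not used. All 5363 barcodes were distinct. The first 609 genes of the matrix had no count above 0 below 4, which was not so for the rest (483 of 16601 genes read in 100 or more cells had their lowest count at 4 or more). The group of each hashtag was taken from the deposited notes. Barcodes were kept when they had at least 500 genes and at most 0.4 of their reads in mitochondrial genes, the limits of the study.

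In a single cell, gates were applied in the order Cd79a of 500 CPM or more (B cells; left out if also past Csf1r and Lyz2), Xcr1 of 50 or Cd209a of 200 with Csf1r under 300 (type 1 and type 2 dendritic cells), and Csf1r of 300 with Lyz2 of 2000 (monocytes and macrophages). The last were parted at Ly6c2 of 500, Ccr2 of 1000 with Cd209a of 200, Ccr2 of 1000 and Lyve1 of 100. T and NK cells had 200 or more in the sum of Cd3d, Cd3g, Trac, Ncr1 and Klrb1c. The members and the gene lists were chosen with earlier results of these data known. Named were the 10 members, a list of 24 other pathway genes, 3 class I genes and the 10 genes most alike in level over 36 sums of class and group. A gene of the pathway list is not reported here. Each group was 1 sample, so that no p-value was computed. Summed reads have exact Poisson intervals and shares exact Clopper-Pearson intervals, both of 95%. The steps were tested on simulated data. Sums and intervals were made with pandas 2.3.3, scipy 1.17.1 and numpy 2.4.6 and figures with matplotlib 3.10.9, in Python 3.11.15. Alternatives were means over single cells, gate limits halved or doubled, no filter, cells thinned to 30000 or 10000 reads, H2-DMb1 and H2-DMb2 summed, 1 or 50 CPM added, a 2-fold limit, a minimum of 10 CPM, median-of-ratios scaling and low limits of 2500 and 10000 CPM. The gates of B cells and T and NK cells without cells past another limit were added after seeing the data.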

Additional observations from a re-analysis of the deposited data

Results flagged for a closer look

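In summed reads, Ly6c2+ cells and Ccr2-low Lyve1- cells moved in opposite directions after TAC, each past 1.5-fold, and the difference between the 2 classes was not tested. In WT mice the log2 ratio of TAC over sham was 0.63 in Ly6c2+ cells and -1.06 in Ccr2-low Lyve1- cells for H2-Aa, 0.64 and -1.02 for H2-Ab1, 0.59 and -1.14 for H2-Eb1 and 1.57 and -0.97 for Ciita. It was 0.63 and -0.70 for H2-DMb2, which had under 50 CPM in each of these sums and was not among the members counted. In CD3e-/- mice it was 2.03 and -1.79 for H2-Aa, 1.79 and -1.71 for H2-Ab1, 2.03 and -1.79 for H2-Eb1, 1.51 and -1.39 for H2-DMb1, 1.69 and -1.65 for Cd74 and 1.43 and -1.09 for Ciita. The Ly6c2+ values rest on 25 cells in WT sham and 32 cells in CD3e-/- sham. With cells weighted equally, the chains in WT Ly6c2+ cells were not past 1.5-fold. H2-Aa was at 2143 CPM in WT sham and 2499 CPM in WT TAC, H2-Ab1 at 1888 and 2126 CPM and H2-Eb1 at 1512 and 1595 CPM. Ciita, at 58.3 and 143 CPM, stayed past 1.5-fold.

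H2-Ob, a chain of H2-DO, went in opposite directions in type 1 dendritic cells of the 2 genotypes, at log2 0.70 after TAC in WT mice and -0.79 in CD3e-/- mice, from 15 to 54 cells a group, and this difference was not tested.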

How the results depend on the processing

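No paired analysis was possible because each group was 1 sample with no replicate number. Of the 9 ratios of members past 1.5-fold in monocytes and macrophages, none changed sign under the alternatives of scaling, gates, filter, added CPM, pooled H2-DMb1 and H2-DMb2 and thinning to 30000 reads. These 9 include H2-Ob in CD3e-/- mice, at 19.3 CPM in sham and 8.47 CPM after TAC, which had too few reads to be among the members counted. Of all 50 ratios, most of them inside the limit, 45 kept their sign with means over single cells and 46 with gates halved. It was 42 with gates doubled and 44 with cells thinned to 30000 reads. Thinning to 10000 reads was run for shares of cells with a read alone. The group with the lowest level in monocytes and macrophages stayed for 4 of 10 members with means over single cells and with thinned cells. The count of members lower after TAC in WT monocytes and macrophages, 1 of 8, was 0 with gate limits halved or doubled, with H2-DMb1 and H2-DMb2 as 1 gene, with 50 CPM added and at 2-fold. With means over single cells the member counted was Cd74 in place of H2-DMb2. The CD3e-/- count of 7 was 2 at 2-fold. The count higher in CD3e-/- sham than in WT sham was 1 with gates halved, and the Ccr2-low Lyve1- count lower in anti-CD8 TAC than in WT TAC was 1 with means over single cells. The WT count of Ly6c2+ cells, 4 of 7, was 1 with means over single cells, gates halved, thinned cells, a 2-fold limit or median-of-ratios scaling. With a limit of 10000 CPM, low class II cells made up 39.2% of monocytes and macrophages in WT sham, 55.2% in WT TAC, 54.3% in CD3e-/- TAC and 59.2% in anti-CD8 TAC, and with 2500 CPM 42.9%, 37.7% and 43.0% in the TAC groups. In Ccr2-low Lyve1- cells the shares were 41.8%, 69.3%, 71.1% and 68.6% at 10000 CPM, 54.6% and 51.3% in WT TAC and CD3e-/- TAC at 2500 CPM, and 54.5% and 52.2% with gates doubled. With gates halved, the level with class shares held was 120.1%, 61.1%, 57.0% and 62.3% of WT sham; with gates doubled it gave no value for CD3e-/- TAC, where a class was empty. The cause of these shifts was not tested. The class with the highest level stayed for 10 of 10 members under means over single cells, gates halved, gates doubled and no filter, and for 9 of 10 with thinned cells. Read depth left the counting intervals narrow, and the lack of replicates limits the comparisons of groups.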

Other observations

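Over 36 sums of class and hashtag group with 20 or more cells, the mean log2 level of H2-Aa, H2-Ab1, H2-Eb1 and Cd74 was most like that of Slamf7, with Pearson's r of 0.742 among 7368 genes compared, followed by Olfm1 at 0.730 and Ryr1 at 0.728. Bcl2a1d, Rogdi, Net1, Tspan33, Alcam, Plbd1 and Unc119 had r from 0.678 to 0.693. Slamf7, a receptor of the SLAM family, ranged from 4.22 CPM to 352 CPM, its highest sum being type 2 dendritic cells of WT sham. Of the members not in that mean, H2-DMb1 had 0.923, H2-DMa 0.902 and Ciita 0.865, above each of these genes, whereas H2-DMb2 had 0.634, H2-Oa 0.497 and H2-Ob 0.484. B2m had -0.562. The sums share 1 library and the 5 groups, and the coefficients are a description.

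H2-Eb2, a further class II beta chain gene outside the 10 members, was at 156 CPM in B cells and at most 6.43 CPM in the other classes.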
